A study of Rattus norvegicus with 24 samples.

Results

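The enzymes and scaffolds of cyclic nucleotide signalling were examined in the supraoptic nucleus of the rat, before and after water deprivation. Members were all probe sets of the Affymetrix array whose single gene symbol begins with Adcy and a digit, Pde and a digit, Prkac, Prkar, Prkg, Gucy or Akap. The rule used no measured value and found 95 probe sets of 31099 on the array, which stand for 63 genes. Of these genes, 38 had 1 probe set, 18 had 2 and 7 had 3, and probe sets of 1 gene are not independent of each other. A further 3 probe sets were left out because their annotation names a second gene beside Pde11a. The nucleus was that of Sprague Dawley rats, and every array held RNA pooled from 5 rats. The female set had 4 arrays of euhydrated controls and 5 arrays of rats without water for 72 hours, with food freely given. The male set, from rats 10 to 12 weeks old, had 5 arrays of controls and 5 arrays of rats dehydrated for 3 days. Female tissue was extracted with Trizol and labelled by the Affymetrix protocol, and male tissue was extracted with QIAzol and amplified with an Ambion kit. The age of the females is not given in the sources used here, and lactating rats of the same series were not analysed here. The submitters describe the pools of a group as replicates of a mixed biological and technical kind. The p-values here therefore measure the spread between arrays, in which these kinds cannot be told apart.

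Cyclic AMP is made from ATP by adenylyl cyclases, which stimulatory G proteins activate and inhibitory G proteins restrain. It binds the regulatory subunits of protein kinase A (PKA), releases the catalytic subunits, and is broken down by phosphodiesterases, while A-kinase anchoring proteins hold the kinase near its substrates. Cyclic GMP is made by soluble guanylyl cyclase, the receptor of nitric oxide, or by membrane guanylyl cyclases that bind peptides, and it acts on cGMP-dependent kinases, channels and phosphodiesterases. The magnocellular neurons of this nucleus make vasopressin and oxytocin, the vasopressin gene carries cAMP response elements, and the neurons contain neuronal nitric oxide synthase.

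Signals are given in the units of the deposited table, which was scaled to a common trimmed mean of about 100 per array. The median signal was 36.1 to 46.5 on the 18 arrays used. Avp, the vasopressin gene, read 3644 to 4254 in control females, 3834 to 7666 in dehydrated females, 4337 to 5616 in control males and 4397 to 5928 in dehydrated males. Of the dehydrated females, array 5 read 50.6 for Avp and 26.0 for the oxytocin gene Oxt, against at least 3001 for Oxt on every other array, and it was left out under the rule. Its 10 oligodendrocyte markers summed to 24642, against 3935 to 9862 on the other female arrays.

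Fold changes compare dehydrated with control rats as log2 values, after rescaling and the addition of 32, and limma was fitted across all probe sets kept by a filter on low signal. The filter kept 66 members in females and 63 in males, 62 of them in both. For 18 of the 63 genes no probe set was kept in either set, among them Pde5a, Pde1a, Pde1c, Pde3a, Pde7b, Adcy10, Akap5 and the membrane cyclases Gucy2d, Gucy2e and Gucy2f, best known from sensory cells. No statement on dehydration is made for those genes. Levels are not compared between genes, since each probe set has its own response.

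In either set most members did not pass an adjusted p of 0.05, and neither did most of all probe sets. In dehydrated females 1 of 66 members passed an adjusted p of 0.05, Akap8l, which fell. That was 1.52%, beside 2.96% of all 21729 probe sets tested (1.77% higher and 1.19% lower). In dehydrated males 9 of 63 members passed (14.3%), beside 17.7% of all probe sets. The male calls were 6 rises (beside 8.32% of all probe sets) and 3 falls (beside 9.38%). When arrays were centred on their median, the males had 13 rises and 2 falls, and all probe sets 2710 rises and 1091 falls in place of 1808 and 2038. At an unadjusted p under 0.05, 4 members were higher and 3 lower in females, where the background was 19% (8.3% and 10.6%), and 12 were higher and 11 lower in males, where it was 31.4% (13.1% and 18.2%). At the unadjusted threshold the members' share was 10.6% in females and 36.5% in males. The share of members called was thus under the background in females by both rules, and in males it was under it at the adjusted threshold and above it at the unadjusted one. The median fold change of the members was 0.04 in females and 0.03 in males, against -0.03 and -0.04 over all probe sets. For 38 of 66 members in females and 49 of 63 in males the 95% interval lay wholly within 1.5-fold, against 49.6% and 74.2% of all probe sets. Only Akap8l was called in the same direction in both sets, 1 of 62 members tested in both (1.61%) beside 460 of 20492 probe sets (2.24%).

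Markers of several other cell types moved with dehydration as well, and in whole-tissue RNA fewer cells of a type and less RNA per cell cannot be told apart. Markers of mural cells and meninges fell for 12 of 15 in males (1 rose) and for 4 of 15 in females. Their summed signal was 4866 to 10471 in control males and 2809 to 6256 in dehydrated males, and 3573 to 5042 and 2577 to 2997 in females. Of 10 oligodendrocyte markers 4 fell in females and 0 in males, with sums of 6979 to 9862 in control and 3935 to 6932 in dehydrated females and 8648 to 11024 and 7669 to 13188 in males. Of 10 microglial markers tested 5 fell in males and 0 of 11 in females. Their sums were 2499 to 3666 in control and 2409 to 2975 in dehydrated males, and 2111 to 2541 and 1754 to 2126 in females. Markers of magnocellular neurons rose for 2 of 7 in each set, Pdyn and Calb2. Blood markers fell for 2 of 3 in males, with sums of 1607 to 2158 in control and 770.3 to 1108 in dehydrated males, and for 1 of 3 in females (1329 to 2485 and 761 to 1720). Markers of ependyma and choroid plexus fell for 2 of 4, astrocyte markers for 3 of 11 and markers of other hypothalamic neurons for 2 of 6 in males, against 0 of 4, 1 of 11 and 0 of 6 in females. Markers of GABAergic neurons had sums of 1243 to 1448 in control and 963 to 1024 in dehydrated females, without overlap, and 0 of 4 passed. The 9 endothelial markers gave no call in either set. The magnocellular markers had sums of 9505 to 10970 in control and 11480 to 19283 in dehydrated females and 11254 to 13537 and 12801 to 15522 in males. No marker of these lists was at 0 in any group, and their part in the results below was not tested.

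**Figure D1:**
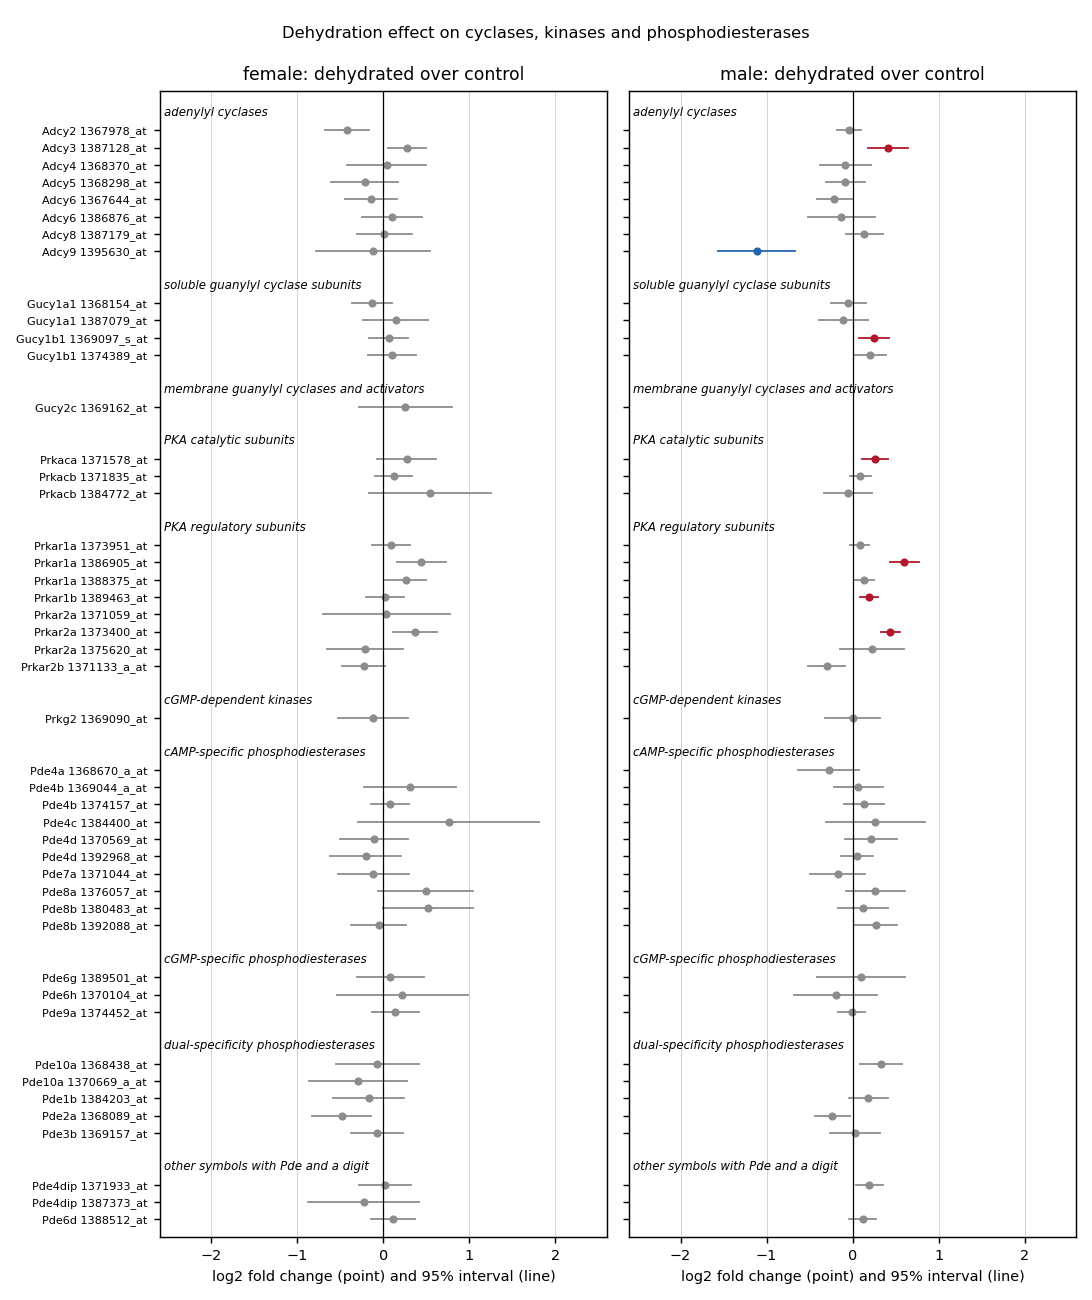
Log2 fold change of dehydrated over control rats (point) with its 95% interval (line) for each cyclase, kinase and phosphodiesterase probe set tested, in females (left) and males (right). Red marks a rise and blue a fall past an adjusted p of 0.05; gaps are probe sets removed by the filter in that set. The coloured points are all on the male side, and no phosphodiesterase is coloured.

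Among the adenylyl cyclases, 1 of 8 probe sets tested in males rose and 1 fell, and 0 of 8 passed in females. Over all probe sets 8.32% rose and 9.38% fell in males, and 2.96% passed in females. Adcy3 (1387128_at), a cyclase best known from olfactory cilia, read 167, 178, 147, 206 and 244 in the control males and 243, 243, 259, 264 and 236 in the dehydrated males. The dehydrated arrays lay close together at the top of the control range, and only the highest control reached into them. The rise was 0.41 ± 0.11 (SE, n = 5 each; limma adjusted p = 0.0168) and was past the threshold in every alternative. In females Adcy3 read 241, 269.9, 254 and 251 in controls and 295, 312, 346 and 282 after dehydration, with no overlap between groups. The female difference was 0.27 ± 0.10 (n = 4 each; adjusted p = 0.175).

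Adcy9 (1395630_at), a cyclase that is insensitive to the plant diterpene forskolin, gave the largest fall of the members in males. It read 30.8, 26.3, 39.5, 41.5 and 36.2 in controls and 10.6, 5.70, 15.1, 22.9 and 11.9 in dehydrated males. The groups did not overlap, but all of these signals lie below the median signal of the arrays or close to it. The fall was -1.12 ± 0.21 (n = 5 each; limma adjusted p = 0.00256), and its size ran from -1.50 to -0.74 as the added value and the other settings were changed. In females the values were 30.4, 18.0, 25.5 and 18.5 in controls and 20.3, 29.2, 29.2 and 8.51 in dehydrated rats. These overlapped fully, with a difference of -0.12 ± 0.30 (adjusted p = 0.863).

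Adcy2 (1367978_at), a cyclase that G protein βγ subunits stimulate, was chosen after its values were seen. It read 488, 375, 478 and 439 in control females and 324, 318, 376 and 301 in dehydrated females, with a single dehydrated array level with the lowest control. The difference was -0.42 ± 0.12 (n = 4 each; limma adjusted p = 0.0737). It passed when control female array 2 (adjusted p = 0.0289) or dehydrated female array 3 (0.0440) was left out and when all groups shared a fit (0.00620). In males the difference was -0.04 ± 0.07. The calcium-regulated cyclases Adcy5, Adcy6 and Adcy8 gave differences of -0.22 to 0.10 in females and -0.21 to 0.14 in males. None passed in the main fits, but Adcy6 (1367644_at) did in males without control male array 5 (-0.28, limma adjusted p = 0.0370).

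Soluble guanylyl cyclase is a dimer of an alpha and a beta subunit. Gucy1b1 (1369097_s_at), its beta subunit, read 379, 462, 514, 488 and 549.6 in control males and 577, 584, 539, 552 and 572 in dehydrated males. The dehydrated arrays clustered at the upper end, and the highest control lay among them. The rise was 0.25 ± 0.08 (n = 5 each, limma adjusted p = 0.0493). Of 4 soluble cyclase probe sets in males it was the only call (25%, beside 17.7% of all probe sets). It was past the threshold in 1 of the 10 fits without an array, the one without control male array 5, and its adjusted p ran from 0.0182 to 0.125 over the other alternatives. A second Gucy1b1 probe set (1374389_at) gave 0.21 ± 0.08 (adjusted p = 0.103). This second probe set passed after centring (0.28, limma adjusted p = 0.0373) and without control male array 5 (0.25, 0.0483). In females the first probe set gave 0.06 ± 0.10. The alpha subunit Gucy1a1 (1368154_at) gave -0.13 in females and -0.05 in males, with male limits of -0.26 and 0.15. Of 6 membrane cyclase probe sets, only that of Gucy2c, the guanylin receptor of the gut, passed the filter, and only in females (0.25, adjusted p = 0.624).

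The 2 smallest adjusted p-values among the members were those of PKA subunits in males. In males 3 of 7 probe sets of regulatory subunits and 1 of 3 of catalytic subunits rose, beside 8.32% of all probe sets. None fell past the threshold in the main fit, although Prkar2b did under other settings. The median male fold change was 0.19 over the regulatory and 0.09 over the catalytic probe sets, against -0.04 over all probe sets. In females 0 of 8 and 0 of 3 passed, with medians of 0.06 and 0.27. Prkar1a and Prkar1b encode the type I regulatory subunits, which are mostly cytosolic, Prkar2a and Prkar2b the type II subunits, which anchoring proteins bind most tightly, and Prkaca and Prkacb the catalytic subunits.

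The windows just upstream of the transcription starts of 3 PKA subunit genes that rose in males, and of Akap8l, the only member called lower in both sets, are given to show the promoter-proximal letters of the genes that these calls name. Prkar2a, which also rose in males, had no entry among the promoters used. The windows are not the sequences that the probe sets detect. They are the 250 bases before the annotated start in RefSeq's GRCr8 assembly, written on the gene's strand, and capitals mark GC boxes (GGGCGG or CCGCCC) and half-sites of the cAMP response element (TGACG or CGTCA). The windows are chr10:95120287-95120536 (plus strand) for Prkar1a, chr19:41083190-41083439 (minus) for Prkaca, chr12:20625674-20625923 (plus) for the first of the annotated starts of Prkar1b, and chr7:12012812-12013061 (minus) for Akap8l.
Prkar1a: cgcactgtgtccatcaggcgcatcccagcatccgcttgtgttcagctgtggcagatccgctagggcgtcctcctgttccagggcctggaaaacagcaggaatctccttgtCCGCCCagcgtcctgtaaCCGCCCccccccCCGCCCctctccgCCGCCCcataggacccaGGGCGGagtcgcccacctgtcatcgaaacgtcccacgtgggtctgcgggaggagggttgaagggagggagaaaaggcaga
Prkaca: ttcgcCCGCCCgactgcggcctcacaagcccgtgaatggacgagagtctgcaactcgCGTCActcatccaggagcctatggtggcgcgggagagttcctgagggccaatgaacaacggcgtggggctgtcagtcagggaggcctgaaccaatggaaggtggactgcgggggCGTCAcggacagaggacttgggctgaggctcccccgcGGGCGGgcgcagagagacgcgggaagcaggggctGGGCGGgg
Prkar1b: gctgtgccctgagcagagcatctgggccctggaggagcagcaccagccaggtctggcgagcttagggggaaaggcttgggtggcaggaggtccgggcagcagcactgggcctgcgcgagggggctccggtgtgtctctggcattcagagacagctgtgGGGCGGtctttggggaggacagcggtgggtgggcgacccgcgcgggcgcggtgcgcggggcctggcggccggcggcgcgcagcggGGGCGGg
Akap8l: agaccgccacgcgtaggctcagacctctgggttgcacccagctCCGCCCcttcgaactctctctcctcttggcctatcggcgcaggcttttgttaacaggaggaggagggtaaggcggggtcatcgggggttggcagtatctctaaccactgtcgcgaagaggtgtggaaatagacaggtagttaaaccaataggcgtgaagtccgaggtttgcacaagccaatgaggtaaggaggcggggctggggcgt
The Prkar1a window held 5 GC boxes and the Prkar1b window 2, with 0 half-sites in either. The window of the other annotated start of Prkar1b, not printed, held 0 GC boxes and 0 half-sites. The Prkaca window held 3 GC boxes and 2 half-sites, which start 193 and 79 bases before the transcription start. The Akap8l window held 1 GC box. Over 33469 windows of the same length 30.5% held a GC box and 18.2% a half-site, on either strand. Over the 60 windows of the 48 member genes with an entry, 29 (48.3%) held a GC box, 10 (16.7%) a half-site and 1 (Akap17a) the full element TGACGTCA, which contains both half-sites and was found in 1.59% of all windows. A half-site can share no more than an end letter with a GC box. These matches describe letters and were not tested against binding.

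Prkar1a (1386905_at) read 264, 259, 283, 206 and 255 in control males and 379, 407, 375, 357 and 408 in dehydrated males. Every dehydrated array was far above every control. The rise was 0.60 ± 0.08 (n = 5 each; limma adjusted p = 0.000164). In females the same probe set read 384, 262, 370.1 and 341 in controls and 469, 511, 429 and 423 after dehydration, again without overlap. The female difference of 0.44 ± 0.13 (n = 4 each) had an adjusted p of 0.0947 on the female arrays alone and of 0.0145 when all groups shared a fit.

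The other Prkar1a probe sets moved less. Probe set 1373951_at read 1117, 1159, 1215, 1161 and 1168 in control males and 1289, 1276, 1129, 1318 and 1166 in dehydrated males, with wide overlap and a difference of 0.08 ± 0.05 (95% limits -0.03 and 0.19). Probe set 1388375_at gave 0.13 ± 0.06 (limma adjusted p = 0.128) in males and 0.26 ± 0.11 (0.227) in females. After centring it passed as a rise in males (0.21, 0.0271). Within each array, the log2 ratio of 1386905_at to 1373951_at was 0.52 higher in dehydrated than in control males, and that to 1388375_at was 0.47 higher. In females the same ratios differed by 0.35 and 0.18. These ratios were chosen after the values were seen and are given as a description, and which transcripts each probe set detects was not tested.

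Prkar2a (1373400_at) had the smallest adjusted p of the members. It read 424, 463, 444, 475 and 427 in control males and 597, 618, 599.9, 622 and 598 in dehydrated males. The dehydrated arrays spanned a narrow band well above all controls. The rise was 0.44 ± 0.05 (n = 5 each; limma adjusted p = 6.12e-05). In females it read 399.6, 516, 396 and 415 in controls and 506, 543, 551 and 627 after dehydration, where 1 high control, array 2, reached into the dehydrated range. The female difference was 0.37 ± 0.12 (adjusted p = 0.115), and it passed without that control (0.45 ± 0.11, adjusted p = 0.0375) and when all groups shared a fit (0.00880). The 2 other Prkar2a probe sets had low signals and did not pass in any set where they were tested.

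Prkar1b (1389463_at) read 1276, 1332, 1292, 1248 and 1339.6 in control males and 1495, 1378, 1527, 1586 and 1415 in dehydrated males, with no overlap. The rise was small, 0.19 ± 0.05 (n = 5 each; limma adjusted p = 0.0157). It missed the threshold after quantile normalization, without the mean-variance trend and when all groups shared a fit, and its adjusted p ran from 0.00220 to 0.122 over the alternatives. In females Prkar1b read 1059, 1075, 1150.2 and 1019 in controls and 1024, 1137, 1169 and 1026 after dehydration, a difference of 0.02 with 95% limits of -0.20 and 0.23 that turned to -0.09 after quantile normalization. Prkar2b (1371133_a_at), the type II subunit of neurons and fat cells, did not rise and was chosen after its values were seen. It read 255, 190.2, 215, 236 and 222 in control males and 147, 181, 165, 207 and 205 in dehydrated males. The male difference was -0.30 ± 0.10 (limma adjusted p = 0.0527). Prkar2b passed as a fall with the filter at the 50th percentile (0.0431). It also passed without dehydrated male array 4 (0.0392) or 5 (0.0440) and without control male array 2 (0.0344). In females Prkar2b read 152, 171, 159.9 and 149 in controls and 141, 127, 149 and 119 after dehydration. The female difference was -0.23 ± 0.11 (adjusted p = 0.292).

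Prkaca (1371578_at) read 235, 283, 267, 252 and 234 in control males and 279.6, 303, 307, 332 and 307 in dehydrated males. A single dehydrated array lay below the highest control. The rise was 0.26 ± 0.07 (n = 5 each; limma adjusted p = 0.0188), and it was lost without dehydrated male array 4 (0.0528) and when all groups shared a fit, with a range of 0.00460 to 0.144 over the other alternatives. The female arrays read 225, 171, 189.7 and 129 in controls and 186, 242, 199 and 227 after dehydration. They overlapped, with a difference of nearly the same size and a larger error, 0.27 ± 0.16 (adjusted p = 0.391). Prkacb (1371835_at) read 1949 to 2381 in control males and 2040.0 to 2270.1 in dehydrated males. Its intervals were narrow, from -0.03 to 0.21 in males and from -0.09 to 0.33 in females around 0.09 and 0.12. Without control male array 1 it passed as a rise in males (0.14, limma adjusted p = 0.0481). A second Prkacb probe set (1384772_at) was less precise, at 0.54 ± 0.33 in females, from 119 to 417 in controls and 244 to 453 after dehydration, and at -0.05 ± 0.13 in males. Its female minus male difference was 0.59 ± 0.36 and did not pass.

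**Figure D2:**
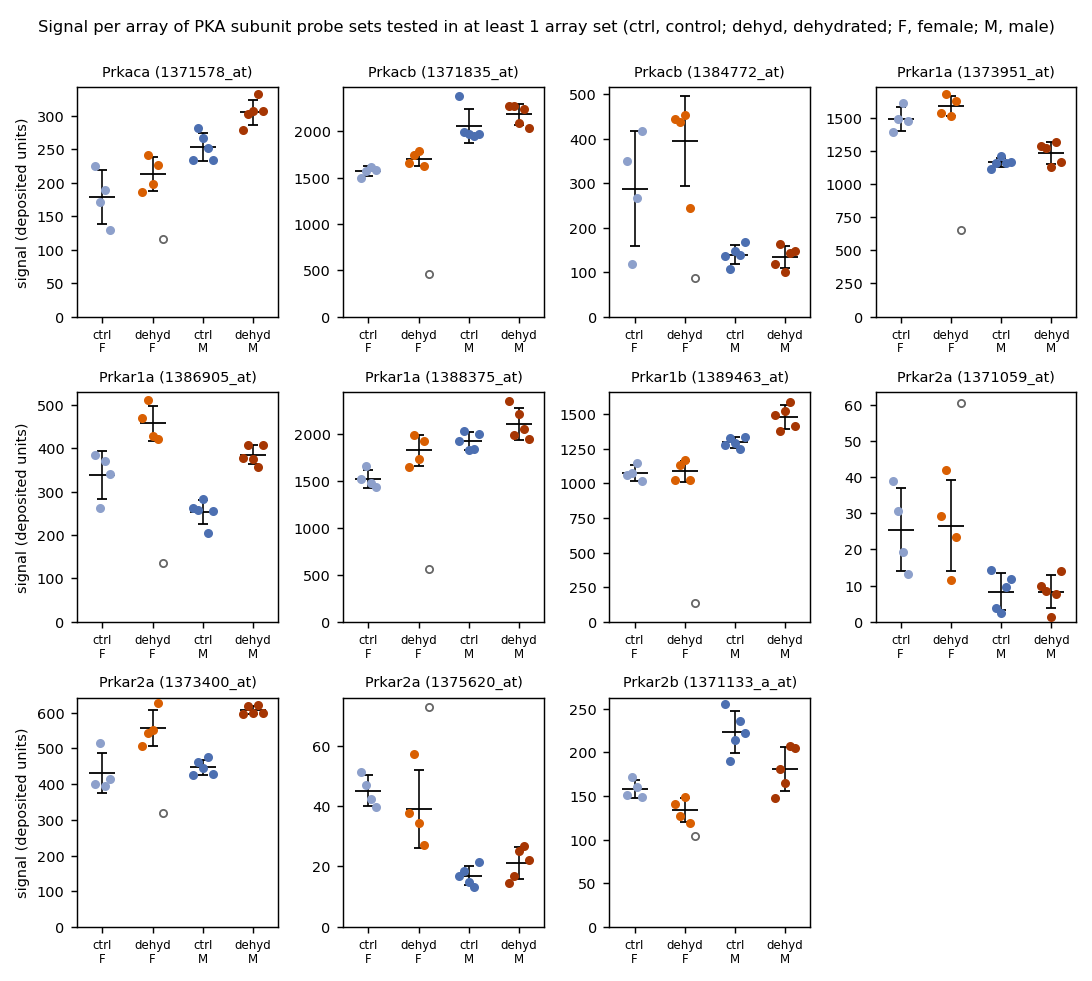
Signal on each array (deposited units, axes from 0) of every PKA subunit probe set tested in at least 1 set; filled points are arrays used, bars the mean and SD, and the open circle the left-out array of dehydrated females. Prkar1a 1386905_at, Prkar2a 1373400_at and Prkar1b separate control from dehydrated males, while the other Prkar1a probe sets overlap.

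The only cGMP-dependent kinase under the rule was Prkg2 (1369090_at), the membrane-bound type II kinase. It read 34.2, 34.4, 39.9, 37.4 and 35.3 in control males and 30.7, 35.4, 38.8, 53.4 and 26.9 in dehydrated males. The dehydrated arrays lay on both sides of the controls. The male difference was -0.00 ± 0.15 (n = 5 each; limma adjusted p = 0.997), with limits of -0.32 and 0.32, and turned to 0.07 after quantile normalization and 0.08 after centring. The female difference was -0.12 ± 0.19.

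No phosphodiesterase passed the threshold in either set, although Pde2a, Pde4a, Pde8b and Pde10a did under other settings. In males 0 of 10 cAMP-specific, 0 of 3 cGMP-specific and 0 of 4 dual-specificity probe sets were called, and in females 0 of 9, 0 of 3 and 0 of 5. Over all probe sets the shares called were 17.7% in males and 2.96% in females. Among the cAMP-specific enzymes Pde8b (1392088_at), a high-affinity enzyme, had the smallest male p of its class. It read 50.8, 58.6, 47.4, 41.4 and 57.5 in controls and 55.9, 57.6, 61.8, 65.1 and 73.4 in dehydrated males, and the groups overlapped. The male difference was 0.27 ± 0.11 (n = 5 each; limma adjusted p = 0.120), and it passed only after quantile normalization (0.0447) and after centring (0.0430). The female difference was -0.06 ± 0.15. Pde4b (1374157_at), a rolipram-sensitive enzyme, gave 0.08 in females (95% limits -0.15 and 0.30) and 0.13 in males (-0.11 and 0.36).

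Pde10a (1368438_at), an enzyme of both nucleotides that is best known from striatal neurons, read 101, 98.6, 88.0, 98.7 and 117 in control males and 129, 100.3, 121, 132 and 166 in dehydrated males. The dehydrated arrays were mostly the higher ones, with some overlap. The male difference was 0.33 ± 0.12 (n = 5 each; limma adjusted p = 0.0590). It passed without dehydrated male array 2 (0.0223) or control male array 5 (0.0339), after quantile normalization (0.0342), after centring (0.0171) and with the stricter filter (0.0488), within a range of 0.0171 to 0.229 over the alternatives that keep every array. Of 7 striatal neuron markers tested in males, 0 passed, and their summed signal was 682 to 1243 in control and 709 to 1025 in dehydrated males. The female difference was -0.07 ± 0.22, from 109, 82.0, 103 and 108 in controls and 72.3, 130.1, 133 and 63.7 after dehydration, where the dehydrated arrays lay on both sides of the controls.

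Pde2a (1368089_at), the cGMP-stimulated enzyme, was chosen after its values were seen. It read 352, 247, 439 and 338 in control females and 251, 264, 236 and 209 in dehydrated females. The lowest control, array 2, lay among the dehydrated arrays. The female difference was -0.48 ± 0.16 (n = 4 each; limma adjusted p = 0.120), and it passed without that control (-0.63 ± 0.13, 0.0194) and when all groups shared a fit (0.0271). In males the difference was -0.24 ± 0.10 (adjusted p = 0.0998), which passed without dehydrated male array 5 (-0.32, 0.0240). Pde4a (1368670_a_at), a cAMP-specific enzyme, was removed by the filter in females. It passed there as a fall when all groups shared a fit (-1.05 ± 0.30, limma adjusted p = 0.0272). The fit without a filter also tested Pde4a in females, and it did not pass. In males it gave -0.28 ± 0.16 (adjusted p = 0.268). Among the cGMP-specific enzymes Pde9a, the enzyme with the highest affinity for cGMP, gave -0.01 in males with limits of -0.17 and 0.15, and Pde6h, an inhibitory subunit of the cone enzyme, gave -0.20 ± 0.23 from signals of 11.9 to 37.7. Pde4dip (1371933_at), a centrosomal and Golgi scaffold that binds a phosphodiesterase and is no enzyme itself, read 254, 277, 294, 271 and 282 in control males and 280.0, 319.9, 296, 346 and 344 in dehydrated males. They overlapped, with a difference of 0.19 ± 0.07 (adjusted p = 0.0735), which passed after centring (0.0170) and without dehydrated male array 1 (0.0366).

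**Figure D3:**
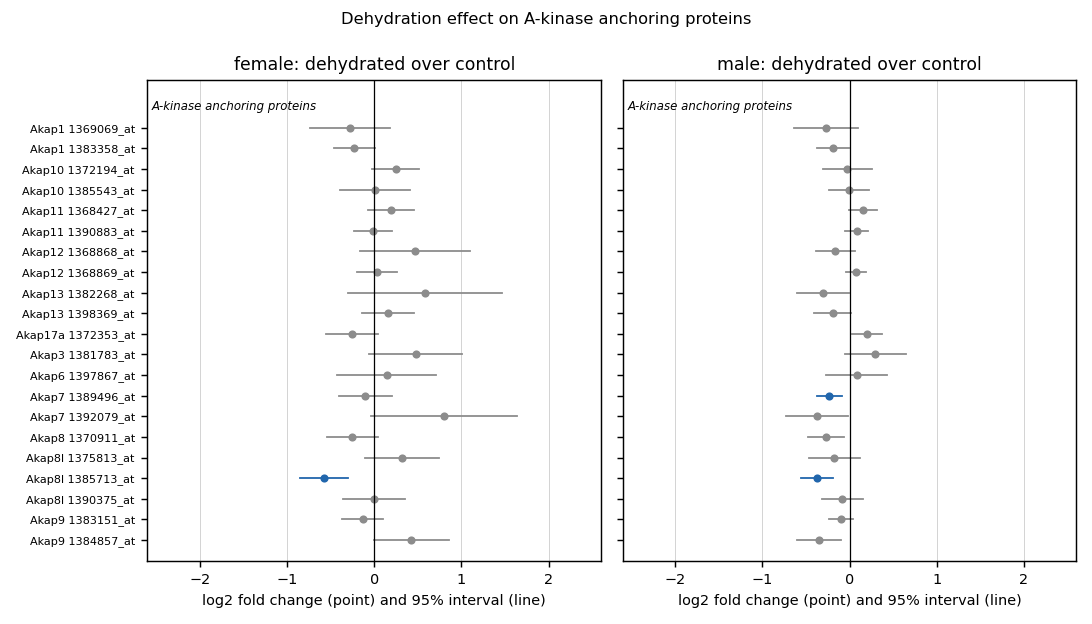
Log2 fold change of dehydrated over control rats (point) with its 95% interval (line) for the 21 A-kinase anchoring protein probe sets tested, in females (left) and males (right); blue marks a fall past an adjusted p of 0.05. Akap8l 1385713_at is blue on both sides and Akap7 1389496_at on the male side.

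A-kinase anchoring proteins are unrelated scaffolds that share a helix for the PKA regulatory dimer. Of 21 probe sets tested in each set, 2 fell in males (9.52%) and 1 in females (4.76%), and 0 rose. Over all probe sets 9.38% fell in males and 1.19% in females. The median fold change was -0.17 in males and 0.03 in females, against -0.04 and -0.03 over all probe sets. Akap8l (1385713_at), a nuclear relative of Akap8 with zinc fingers, read 176, 173, 243 and 174 in control females and 130.3, 124, 125 and 123 in dehydrated females. The dehydrated arrays were almost level with each other and below every control. The fall was -0.57 ± 0.13 (n = 4 each; limma adjusted p = 0.0359). This call was lost in 6 of the 8 fits without an array, where the adjusted p ran from 0.0272 to 0.0992. It held in the fits without control array 2 or dehydrated array 3. The call was also lost after median centring (0.0766) and without the mean-variance trend (0.0741), and with dehydrated array 5, which read 384, the difference was -0.26 (0.879).

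In males Akap8l read 258, 212, 191, 216 and 219 in controls and 182, 144, 173, 166 and 172 after dehydration, again with no overlap. The fall was -0.37 ± 0.09 (n = 5 each; limma adjusted p = 0.00862) and passed in every alternative. A second probe set of the gene (1390375_at) did not follow, at -0.01 ± 0.16 in females and -0.08 ± 0.11 in males. The log2 ratio of the first to the second differed by -0.56 in females and by -0.29 in males, a description chosen in the same way. The remaining probe set (1375813_at) gave 0.32 in females and -0.18 in males.

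Akap7 (1389496_at), a small scaffold that tethers PKA to membranes and calcium channels, read 511, 559, 595, 558 and 645 in control males and 519.5, 518, 468, 455 and 473 in dehydrated males. The lowest control lay within the dehydrated range. The fall was -0.23 ± 0.07 (n = 5 each; limma adjusted p = 0.0268). It held in 5 of the 10 fits without an array, was lost without dehydrated male array 3, 4 or 5 or control male array 3 or 5, and also after centring, without the trend and when all groups shared a fit (range 0.00792 to 0.172). The female arrays read 596, 823, 642 and 625 in controls and 534, 548, 721 and 695 after dehydration, a difference of -0.10 ± 0.14. A second Akap7 probe set (1392079_at) gave 0.80 in females and -0.37 in males, neither past the threshold. The 95% interval lay within 1.5-fold for 16 of 21 scaffold probe sets in males and 12 of 21 in females. Probe sets of the large scaffolds did not all go one way. Akap12, also called gravin, gave 0.07 in males (limits -0.05 and 0.19) and 0.03 in females on 1368869_at, but -0.17 and 0.47 on 1368868_at. Akap13 gave -0.30 in males (limits -0.60 and -0.0049) and 0.58 in females on 1382268_at, and -0.20 and 0.16 on 1398369_at. Akap11 gave 0.08 in males on 1390883_at and 0.15 on 1368427_at. None of these passed in the main fits. Akap11 1368427_at passed in males after median centring (limma adjusted p = 0.0398). Akap13 1382268_at passed without dehydrated male array 1 (-0.41, 0.0415). Other scaffolds also passed in males under some settings. Akap8 1370911_at fell without control male array 4 (-0.36, limma adjusted p = 0.00600). Akap17a 1372353_at rose after centring (0.28, 0.0294) and without control male array 1 (0.25, 0.0401). Akap9 1384857_at fell with the filter at the 50th percentile (-0.35, 0.0457). It also fell without dehydrated male array 1 (-0.40, 0.0381) or control male array 4 (-0.40, 0.0414).

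**Figure D4:**
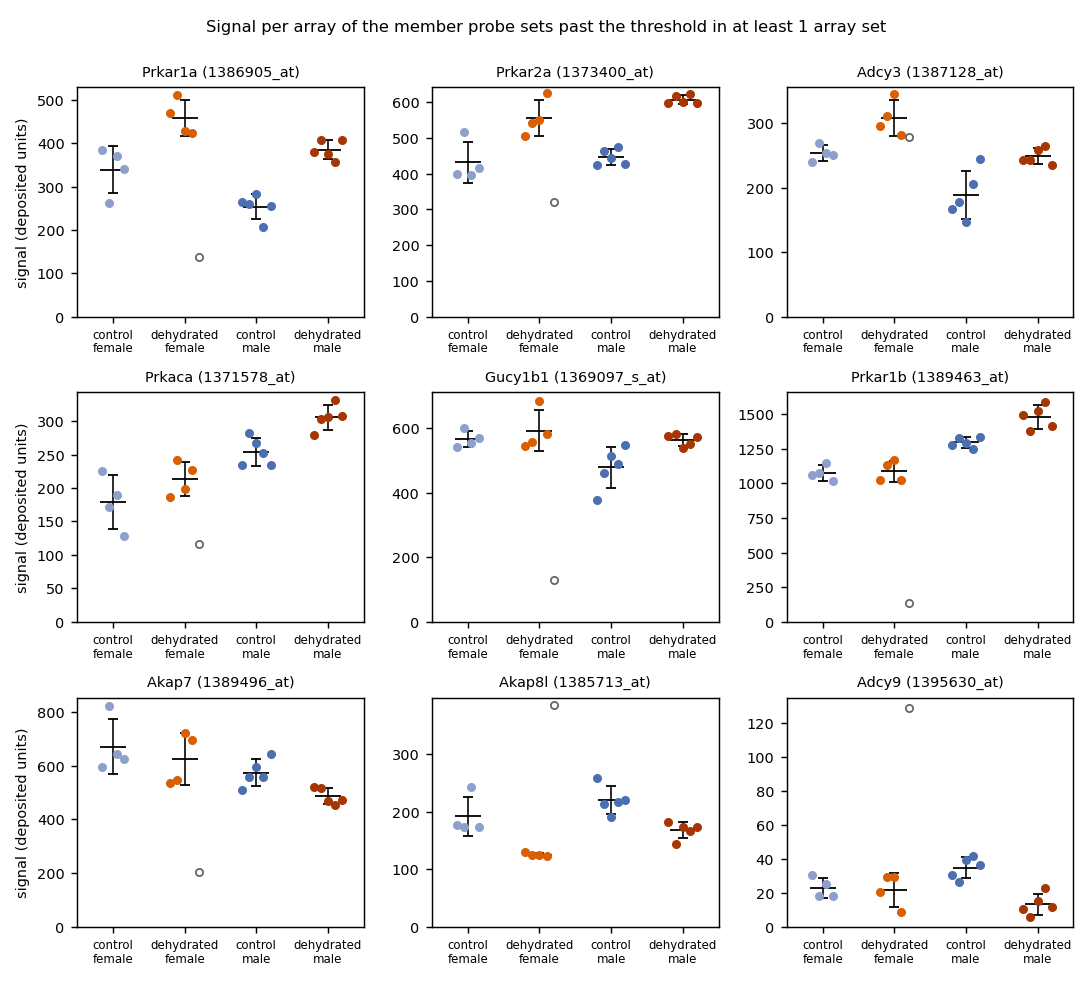
Signal on each array (deposited units, axes from 0) of the 9 member probe sets past the threshold in males, of which Akap8l is past it in females too; filled points are arrays used, bars the mean and SD, and the open circle the left-out array. Prkar1a, Prkar2a, Prkar1b, Akap8l and Adcy9 show no overlap between control and dehydrated males.

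By separation of the arrays, the members' share was 7.94% in males and 9.09% in females. These shares are not like for like, because full separation is harder to reach in the larger male groups. In males 5 of the 63 members had no overlap between groups, 3 higher and 2 lower, beside 12.8% of all probe sets (6.82% higher and 5.95% lower). In females 6 of 66 had none, 3 higher and 3 lower, beside 12.3% (5.31% and 7.04%). The female ones that were higher were Prkar1a, Adcy3 and Prkacb, and the lower ones were Akap8l, Prkar2b and Akap1, a scaffold of the outer mitochondrial membrane.

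The dehydration effect was then compared between the sets, where sex, extraction, labelling and signal software change together and cannot be told apart. Of 66 members 0 passed, beside 0.0322% of all probe sets (0.0184% higher in females and 0.0138% lower). An unadjusted p under 0.05 was seen for 7, of which 5 were higher and 2 lower in females, beside 10% of all (5.29% and 4.73%). The 95% interval of the difference lay within 1.5-fold for 32 of 66 members, beside 44.1% of all probe sets. The smallest p was that of Akap9 (1384857_at), a centrosomal scaffold chosen here after its values were seen. It read 51.7, 52.9, 31.1 and 59.5 in control females and 49.8, 74.7, 73.2 and 70.3 after dehydration, but 149, 121, 117, 101 and 116 in control males and 109.7, 99.5, 70.4, 97.9 and 91.2 after dehydration. Dehydrated females were mostly above and dehydrated males mostly below their controls. The female minus male difference was 0.77 ± 0.23 (limma unadjusted p = 0.00265, adjusted 0.220), and the other Akap9 probe set gave -0.03. For Adcy9 the difference was 0.99 ± 0.37 (adjusted p = 0.350). For the PKA probe sets that rose in males it was -0.16 ± 0.15 for Prkar1a, -0.07 ± 0.12 for Prkar2a, -0.17 ± 0.10 for Prkar1b and 0.01 ± 0.17 for Prkaca. A rise in males that missed the threshold in females is therefore not shown to differ between the sets.

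A list of 48 genes that act just before or after these enzymes was read with 1 probe set a gene, the one with the highest mean. In males 5 of 38 tested rose and 4 fell (23.7%, beside 17.7% of all probe sets), and in females 1 of 36 rose (2.78%, beside 2.96%). Crem, a transcription factor that binds cAMP response elements, was the gene called in both. Which of its transcripts each probe set detects was not tested. Crem (1378925_at) read 120.0, 125, 132 and 117 in control females and 242, 181, 185 and 224 in dehydrated females. In males it read 110.0, 118, 134, 128 and 111 in controls and 207, 245, 229, 254 and 164 after dehydration. No dehydrated array of either set came down to its controls. The rise was 0.71 ± 0.12 in females (n = 4 each; limma adjusted p = 0.0112) and 0.83 ± 0.11 in males (n = 5 each; 0.000140). A second Crem probe set (1369737_at) rose by 0.86 ± 0.20 in females (adjusted p = 0.0456) and 0.75 ± 0.16 in males (0.00592). Of the 4 other Crem probe sets, 2 rose in males, by 0.50 (adjusted p = 0.0429) and 0.58 (0.0393), and none passed in females. Creb1, the activator that binds the same element, gave -0.07 and -0.10.

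**Figure D5:**
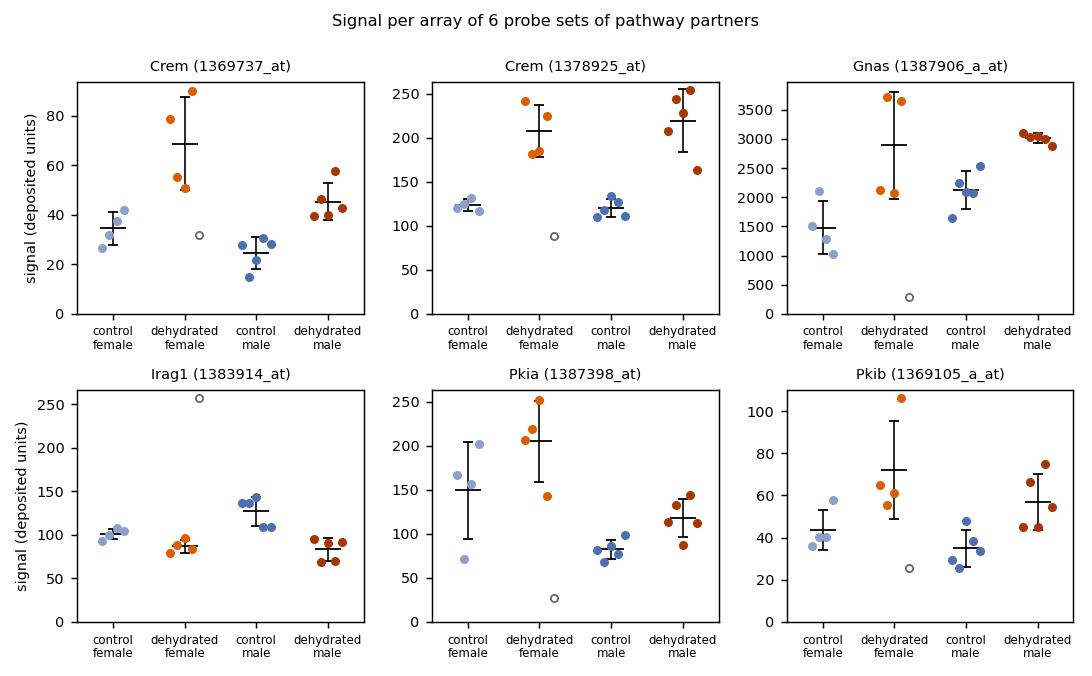
Signal on each array (deposited units, axes from 0) of 6 probe sets of genes that act beside the enzymes; filled points are arrays used, bars the mean and SD, and the open circle the left-out array. Both Crem probe sets separate control from dehydrated rats in females and in males.

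At the level of PKA itself, Pkib, an inhibitor peptide of the catalytic subunit, rose in males. It read 29.2, 25.7, 47.9, 38.2 and 33.6 in controls and 45.1, 66.3, 44.8, 74.7 and 54.3 after dehydration, with slight overlap, a rise of 0.62 ± 0.17 (n = 5 each; limma adjusted p = 0.0189). In females the difference was of the same size, 0.62 ± 0.21 (adjusted p = 0.131). These values are from 1369105_a_at, and a second Pkib probe set (1387459_at) gave 0.05 ± 0.13 in males (adjusted p = 0.840) and 0.30 in females. Pkia, a related inhibitor, gave 0.48 ± 0.13 in males on 1387398_at (adjusted p = 0.0176) and 0.13 on the probe set with the higher mean, which did not pass. Gnas, the stimulatory G protein that activates adenylyl cyclases, also differed by probe set. On 1387906_a_at it read 1641, 2240.1, 2086, 2071 and 2541 in control males and 3100.0, 3025, 3058, 2990.3 and 2871 in dehydrated males, without overlap, a rise of 0.52 ± 0.08 (adjusted p = 0.000775). On 1369897_s_at, the probe set read for the list, the male difference was 0.16 ± 0.06 (adjusted p = 0.0643). In females the difference was 0.95 ± 0.25 on 1387906_a_at (limma adjusted p = 0.0623) and 0.38 ± 0.16 on 1369897_s_at (0.231). The remaining Gnas probe set (1390263_at) went the other way in males at low signal, by -0.50 ± 0.18 (0.0601) and without overlap. It was not tested in females. Gnas is an imprinted locus with several overlapping transcripts, and which of them each probe set detects was not tested. Gnaz, an inhibitory G protein, rose by 0.37 ± 0.12 in males (0.0364) and gave -0.44 ± 0.13 in females (0.0846). Its female minus male difference of -0.82 ± 0.17 had the smallest adjusted p of the listed genes, 0.0661.

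On the cGMP side the male calls went both ways. Irag1, the substrate through which cGMP-dependent kinase restrains calcium release in smooth muscle, fell by 0.57 ± 0.12 (n = 5 each; limma adjusted p = 0.00398), from 137, 137, 143, 109 and 108 to 95.7, 68.9, 91.2, 69.9 and 92.0. Npr1, the membrane guanylyl cyclase that binds atrial natriuretic peptide, fell by 0.48 ± 0.11 (0.0102), from 71.4, 68.2, 66.2, 55.6 and 50.4 to 42.0, 38.6, 44.6, 47.8 and 40.9. Neither gene's groups overlapped in males, and in the same arrays 12 of 15 mural and meningeal markers fell, a relation that was not tested. Vasp, an actin regulator phosphorylated by both kinases, rose by 0.53 ± 0.12 (0.00763). Of the remaining male calls, Hcn3, a pacemaker channel, rose (0.54 ± 0.15, 0.0240). The phosphatase inhibitor Ppp1r1a (-0.63 ± 0.19, 0.0358) and the cAMP-binding membrane protein Popdc3 (-0.92 ± 0.21, 0.00786, at low signal) fell. Nos1, the neuronal nitric oxide synthase, gave 0.76 in females (adjusted p = 0.197) and 0.41 in males (0.106).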

How the data were processed

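Signals of 31099 probe sets were read from the deposited table for 19 arrays of Affymetrix design, and 18 were used. The values deposited by the authors are an intensity for each probe set on a linear scale, and per the submitters' processing notes they were made with GCOS 1.2 (males) and MAS5 (females). In each array the 2% trimmed mean was about 100. Background correction and summary settings are not given in the sources used here, and depth does not apply to arrays, whose number limits the precision. No pair of arrays held identical values.

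Arrays were rescaled to a trimmed mean of 500 and taken as log2(value + 32). Probe sets with a mean above the 30th percentile were kept, without the array's 57 controls. Groups were compared with limma 3.58.1 in R 4.3.3 (lmFit, eBayes with trend), adjusted by Benjamini-Hochberg over all probe sets kept, with a threshold of 0.05. The fit was tested on simulated data. Females, males and the difference between them were fitted separately. Gene symbols come from the platform annotation, and the members were picked by them. Symbols updated by Entrez ID were used as well to match the marker and partner lists. Promoter windows come from RefSeq (GRCr8). Figures were drawn with matplotlib 3.10.9 in Python 3.11.15.

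The members, the lists and the left-out array were chosen with earlier results of these data known. Probe sets given with every array were those past the threshold, up to 8 rises and 8 falls, and the smallest male p of each class without a call; others are marked. Alternatives were quantile normalization, median centring, added values of 1 and 100, no filter and one at the 50th percentile, no trend, a shared fit of all groups, the left-out array put back and each array left out.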

Additional observations from a re-analysis of the deposited data

Results flagged for a closer look

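Of 56 groups of arrays checked, those of the 14 probe sets named by rule, 3 held an array whose gap to its nearest neighbour was large against the range of the group. Chance flags about 5% of such groups. Akap8l (1385713_at) read 243 on control female array 3, against 176 on the next highest control. Without that array the female fall of Akap8l was -0.46 and the limma adjusted p was 0.0943. Prkar2a (1373400_at) read 516 on control female array 2, against 415 on the next. Without it the female rise of Prkar2a had an adjusted p of 0.0375. Pde8b (1392088_at) read 51.2 on dehydrated female array 4, against 68.9 on the next lowest, and without it the female difference was 0.05.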

How the results depend on the processing

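The count of members called was 1 in females and 9 in males. In females it was 0 after centring, without the trend and with the left-out array, 6 when all groups shared a fit, and 0 to 4 as each array was left out. In males it was 15 after centring and 5 in the shared fit, and 7 to 11 as each array was left out. No alternative gave a call in the difference between sets. Male Prkar1a, Prkar2a, Adcy3 and Akap8l passed in every alternative, and male Adcy9 in every one but the filter at the 50th percentile, which removed it. Differences near 0 turned sign, and the cause was not tested. With the left-out array the female values were -0.57 for Prkar1b, -0.37 for Gucy1b1, 0.34 for Adcy9, 0.21 for Pde8b and 0.071 for Pde10a, and the female minus male values were -0.16 for Prkaca, -0.19 for Akap7 and 0.11 for Akap8l. Quantile normalization gave -0.087 for female Prkar1b, -0.013 for female Gucy1b1 and 0.070 for male Prkg2. Centring gave 0.077 for male Prkg2 and -0.030 for the Prkaca difference, and an added value of 100 gave 0.0040 and -0.00088. As each array was left out, ranges that crossed 0 were -0.14 to 0.12 for the difference of Prkaca, -0.23 to 0.0026 for that of Prkg2, -0.13 to 0.016 for that of Prkar2a and -0.12 to 0.087 for male Prkg2. In females they were -0.018 to 0.049 for Prkar1b, -0.094 to 0.14 for Pde4dip, -0.22 to 0.11 for Pde10a, -0.0090 to 0.099 for Gucy1b1, -0.12 to 0.049 for Pde8b and -0.26 to 0.15 for Adcy9. No paired analysis was possible because the titles carry serial numbers that the groups do not share and no label ties a number to a litter, batch or day. The median SE was 0.17 in females and 0.12 in males.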
